A study of Mus musculus with 4 samples.

Results

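The genes of the mitochondrial respiratory chain were followed across 4 pooled tissues of the developing mouse tongue and lower jaw. Members were chosen by gene name alone, with a pattern that takes in the nuclear-encoded subunits of complexes I to V and genes named after them, and each gene was represented by its brightest probe. The pattern found 92 of the 37073 gene names on the arrays, of which 83 were subunits or paralogs of subunits and 9 were assembly factors or other genes that share the names (Ndufaf1 to Ndufaf7, Atp5s and Atp5sl). The tissues came from wild-type ICR embryos with no treatment: the medial mandibular arch of 12 embryos at E9.5 (MMA), the lateral lingual swellings of 4 embryos at E11.5 (LLS), the lateral part of the mandibular arch of 4 embryos at E11.5 (LMA), and the medial tongue of 4 embryos at E14.5 (T). Each pool was hybridised to 1 single-colour Agilent array. With 1 array per tissue there are no replicates, so no difference below carries a test, precision is limited by the number of arrays, and a difference between tissues cannot be told apart from a difference between pools.

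Complexes I to IV pass electrons from NADH and succinate to oxygen and, except for complex II, pump protons out of the mitochondrial matrix, and complex V (ATP synthase) uses the proton gradient to make ATP. Complex IV, cytochrome c oxidase, has subunits that exist as tissue isoforms: Cox6a2, Cox7a1 and Cox8b are the forms of heart and skeletal muscle, and Cox6a1, Cox7a2 and Cox8a are their counterparts in most other tissues. The embryonic tongue contains skeletal muscle that forms from myoblasts which migrate into the lingual swellings.

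Between 56.95% and 62.89% of non-control spots were well above background on each array, and no spot was saturated (0). Levels are given as scaled signal, the processed signal after every array was brought to the same 75th percentile, and differences as log2 of the ratio of scaled signals. Orders of the tissues are those under this scaling unless another is named. Of the 92 members, 87 were well above background in all 4 tissues, 4 in some of them (Cox6a2, Cox8b, Cox7b2 and Ndufa4l2) and 1, Cox8c, in none. Members were among the brighter genes, with 71 of 92 in LMA to 75 of 92 in T in the top 10% of gene names. A single spot differed between a pair of arrays with an SD of 0.06 on the log2 scale, measured on 250 probes printed 10 times, and this covers the error of the spot and not that of the pool. The error model of the scanner software gave a larger error, 0.20 for most members in each comparison, which exceeds many of the differences given here.

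The muscle isoforms of cytochrome c oxidase were higher in the E14.5 tongue than in each other tissue. Their paralogs that were well above background in every tissue stayed under 2-fold. Cox6a2, the muscle form of subunit VIa, had a scaled signal of 5.28 for MMA, 16.3 for LLS, 75.2 for LMA and 14107 for T. Only LMA and T were well above background for it, and T stood far above LMA. Cox6a2 was therefore at least 645-fold higher in T than in LLS (a log2 difference of at least 9.33), at least 574-fold higher in T than in MMA, and 187-fold higher in T than in LMA. Its probe lies on chromosome 7, positions 135349160 to 135349219 of mm9. Cox8b, the muscle form of subunit VIII, had 5.58 in MMA, 7.53 in LLS and 21.6 in LMA, and 7693 in T. Again MMA and LLS were not well above background, LMA lay close to the lowest signal of that kind on its array (18.6), and T was the only tissue with a high level. Cox8b was at least 352-fold higher in T than in LLS (log2 8.46 or more), at least 313-fold higher in T than in MMA and 356-fold higher in T than in LMA. Its probe is at positions 148084852 to 148084911 of chromosome 7 in mm9. The bounds for both genes hold for the background subtraction and floor used here. With normexp background correction, T minus LLS was 7.43 for Cox6a2 and 6.47 for Cox8b.

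Cox7a1, the muscle form of subunit VIIa, was well above background in every tissue and differed less. Its scaled signal was 196 for MMA, 196 for LLS, 173 for LMA and 549 for T. The 3 earlier tissues were close to each other and T was the highest. Cox7a1 was 2.80-fold higher in T than in LLS (log2 1.48), 2.80-fold higher in T than in MMA (log2 1.49) and 3.17-fold higher in T than in LMA, and its probe maps between positions 30970337 and 30970948 of chromosome 7 in mm9. In bulk tissue, fewer cells of a type and less RNA per cell cannot be told apart, and this holds for these isoforms and for the differences that follow.

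**Figure D1:**
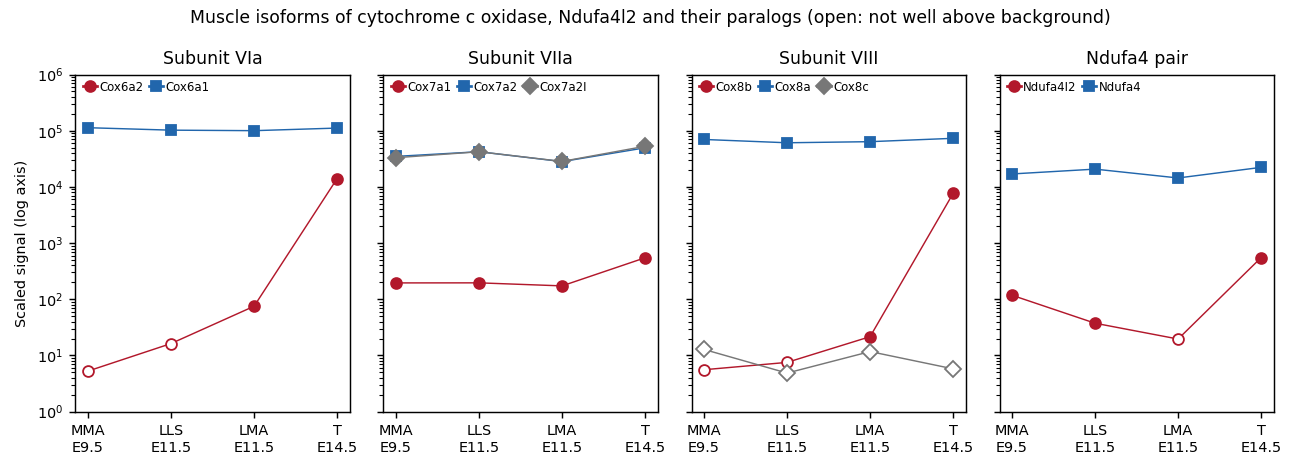
Scaled signal (log axis) of the muscle isoforms Cox6a2, Cox7a1 and Cox8b, of Ndufa4l2 and of their paralogs in MMA, LLS, LMA and T, with 1 array per tissue. Open symbols are not well above background. Cox6a2, Cox8b, Cox7a1 and Ndufa4l2 are highest in T, while Cox6a1, Cox7a2, Cox7a2l, Cox8a and Ndufa4 keep nearly level lines on this axis.

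The paralogs of the muscle isoforms differed less. Cox6a1 had a scaled signal of 113185 in MMA, 102362 in LLS and 100212 in LMA, and 111523 in T, a log2 difference of 0.12 in T minus LLS. Cox8a had 69905 for MMA, 61041 for LLS, 63852 for LMA and 73257 for T, a difference of 0.26 in T minus LLS. Neither gene was 1.5-fold apart in any pair of these tissues. Cox7a2 had 34925 in MMA, 42302 in LLS and 28209 in LMA, and 49646 in T, and was 0.23 higher in T than in LLS. Cox7a2l, a relative of Cox7a2 that takes part in joining complexes III and IV, had 33093 for MMA, 42282 for LLS, 28419 for LMA and 52881 for T, and was 0.32 higher in T than in LLS. Both were highest in T and lowest in LMA, with T 1.76-fold above LMA for Cox7a2 and 1.86-fold for Cox7a2l. Cox8c, a testis form of subunit VIII, was not well above background in any tissue, with 12.8 in MMA, 4.86 in LLS and 11.7 in LMA, and 5.78 in T.

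Markers of skeletal muscle, like the muscle isoforms, were higher in T than in LLS and MMA. The 10 listed markers were Acta1, Myh3, Myh8, Mylpf, Tnnt3, Tnnc2, Ckm, Myog, Myod1 and Des. All 10 were at least 2-fold higher in T than in LLS, beside 11.4% of all genes, with a median log2 difference of 6.96. All 10 were also at least 2-fold higher in T than in MMA, beside 15.9% of all genes, with a median of 8.91. Their summed scaled signal was 697 for MMA, 4480 for LLS, 14321 for LMA and 369058 for T. Creatine kinase Ckm was the marker with the most restricted pattern, with 2772 in T and no value well above background in the other tissues, whereas Myog and Myod1 were already well above background in LLS and LMA. LLS was lower than LMA for all 9 muscle markers compared, at a median of -1.49. For 7 of them it was at least 2-fold lower, beside 2.58% of all genes. Cox7a1 did not follow the markers here, with 0.18 in LLS minus LMA. The 7 heart markers summed to 962 in MMA, 1258 in LLS and 1419 in LMA, and 4274 in T, where Myl2, a myosin light chain of heart and slow muscle, had 1159. Among the 7 brown fat markers, another tissue with Cox7a1 and Cox8b, Ucp1, Elovl3, Adipoq and Plin1 were not well above background in any tissue. Cidea had 357 in T and was at least 4.03 higher there than in LLS, Prdm16 had 64.0 in T, against 350 in LLS (-2.45), and Ppargc1a stood at 0.52 in T minus LLS. The part of these other cell types in the isoform signals was not tested.

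The promoter windows of the isoforms are shown because Cox7a1 and Cox8b were at least 2-fold higher in T than in each other tissue while Cox6a1, Cox7a2 and Cox8a, which are bright in every tissue, were not. RefSeq windows of the 250 bases before the transcription start (GRCm38.p6) were matched for 75 of the 92 members. Cox6a2 and Ndufa4l2, which had the same pattern in T, had no window and are not shown. Capitals mark matches, on either strand, to the letters TGCGCA (core of the site for NRF1, a regulator of respiratory genes), CCGGAAG (a site for ETS factors such as GABP), CAGCTG (an E-box of the kind bound by myogenic factors) and CCAAT (the site for NF-Y), to the TATA box letters TATAAA, and to the MEF2 site. Cox7a1 is at chr7:30183921-30184170 (+), Cox8b at chr7:140900447-140900696 (-), Cox6a1 at chr5:115348959-115349208 (-), Cox7a2 at chr9:79759854-79760103 (-) and Cox8a at chr19:7217617-7217866 (-).
Cox7a1: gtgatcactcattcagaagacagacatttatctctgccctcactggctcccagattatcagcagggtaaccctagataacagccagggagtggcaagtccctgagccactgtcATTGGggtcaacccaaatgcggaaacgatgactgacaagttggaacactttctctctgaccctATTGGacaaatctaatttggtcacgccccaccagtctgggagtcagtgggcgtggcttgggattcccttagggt
Cox8b: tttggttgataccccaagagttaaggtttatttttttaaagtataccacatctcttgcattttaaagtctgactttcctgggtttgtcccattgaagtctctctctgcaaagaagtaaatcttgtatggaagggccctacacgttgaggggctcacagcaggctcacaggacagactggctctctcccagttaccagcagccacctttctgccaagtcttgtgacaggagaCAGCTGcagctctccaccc
Cox6a1: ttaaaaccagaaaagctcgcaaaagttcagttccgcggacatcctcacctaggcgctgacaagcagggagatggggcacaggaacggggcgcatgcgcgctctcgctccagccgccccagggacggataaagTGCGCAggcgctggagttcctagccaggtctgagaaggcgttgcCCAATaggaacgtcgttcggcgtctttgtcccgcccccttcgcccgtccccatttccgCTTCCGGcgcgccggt
Cox7a2: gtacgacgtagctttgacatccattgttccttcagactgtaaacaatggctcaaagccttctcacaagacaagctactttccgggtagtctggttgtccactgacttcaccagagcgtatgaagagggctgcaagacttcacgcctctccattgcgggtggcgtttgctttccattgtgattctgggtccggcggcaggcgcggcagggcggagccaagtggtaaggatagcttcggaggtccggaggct
Cox8a: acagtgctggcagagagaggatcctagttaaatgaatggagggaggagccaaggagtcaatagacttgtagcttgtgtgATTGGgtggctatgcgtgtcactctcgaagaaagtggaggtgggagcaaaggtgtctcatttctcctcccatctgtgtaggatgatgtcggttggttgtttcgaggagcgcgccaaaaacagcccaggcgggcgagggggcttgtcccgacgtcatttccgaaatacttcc
The window of Cox8b held 1 CAGCTG and that of Cox7a1 held 2 CCAAT matches. The window of Cox6a1 held 1 TGCGCA, 1 CCGGAAG and 1 CCAAT, Cox8a held 1 CCAAT, and Cox7a2 had 0 matches. Over the 73 windows of members other than the muscle isoforms, TGCGCA was present in 14 (19.2%), against 6.43% of all 32851 windows, and CCGGAAG in 12 (16.4%), against 6.91%. CCAAT was present in 33 of the 73 (45.2%), against 33.8% of all windows. The E-box letters were in 5 of the 73 (6.85%), against 13.0% of all windows, TATAAA in 6 (8.22%), against 12.4%, and the MEF2 site in 0, against 2.92%. Members were counted by the first window of each gene and the background by every window, where a gene can count more than once. The background was not matched to the members for GC content or signal. These are matches of letters only and carry no measurement of binding.

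Ndufa4l2, a paralog of Ndufa4 that is known as a target of hypoxia-inducible factor, was the other member that stood apart in T. Its scaled signal was 118 for MMA, 37.5 for LLS, 19.6 for LMA and 554 for T, and LMA was not well above background. The gene was highest in T, and MMA lay above both E11.5 tissues. Ndufa4l2 was 14.8-fold higher in T than in LLS (log2 3.88, but 2.53 with normexp background correction), 4.69-fold higher in T than in MMA (log2 2.23) and 3.15-fold lower in LLS than in MMA (log2 -1.65). Its probe is on chromosome 10, positions 126954149 to 126954208 of mm9. Ndufa4 itself, a subunit now counted with complex IV, had 17009 in MMA, 20729 in LLS and 14430 in LMA, and 22284 in T, a difference of 0.10 in T minus LLS.

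Together Cox6a2, Cox7a1, Cox8b and Ndufa4l2 were the 4 members at least 2-fold higher in T than in each other tissue, where 7.80% of the 24065 genes well above background in some tissue had the same pattern. In T minus LLS these 4 were also the only members of the 90 compared at least 2-fold higher, beside 11.4% of 22311 genes, and 0 members were at least 2-fold lower, beside 5.97%. Counted in either direction, 4 of 90 members were at least 2-fold apart, beside 17.4% of genes. The same 4 genes made up this count under each of the 7 other processings tried, and 8 members were at least 1.5-fold apart.

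The remaining isoform pairs of complex IV differed less, and none of them was 2-fold apart in T minus LLS, T minus MMA, LLS minus MMA or LLS minus LMA where measured in both tissues. Cox4i1, the general form of the largest nuclear-encoded subunit, had 56043 for MMA, 53130 for LLS, 49292 for LMA and 53403 for T. Cox4i2, a form known from lung and from low oxygen, had 353 in MMA, 268 in LLS and 232 in LMA, and 243 in T, with a log2 difference of -0.54 in T minus MMA. Cox4i1 was nearly level over the tissues and Cox4i2 was highest in MMA. Cox6b1 had 4221 for MMA, 5354 for LLS, 3587 for LMA and 5451 for T. Cox6b2, its testis form, had 735 in MMA, 879 in LLS and 1022 in LMA, and 554 in T. Cox6b2 was lowest in T, the tissue in which Cox6b1 was highest, and its T minus LLS difference of -0.67 was the lowest of the members measured in both. Cox7b had 28171 for MMA, 23778 for LLS, 13794 for LMA and 28301 for T, with LMA below the other tissues, and was 2.05-fold higher in T than in LMA and 2.04-fold lower in LMA than in MMA. Its testis form Cox7b2 was well above background in LMA alone, at 21.8.

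The 3 genes for the ring-forming c subunit of ATP synthase, which encode the same mature protein, were also close to level. Atp5g1 had 37922 in MMA, 28816 in LLS and 29942 in LMA, and 31958 in T. Atp5g2 had 85910 for MMA, 78900 for LLS, 55806 for LMA and 82884 for T, and its probe was printed 10 times with an SD over spots of 5901 in MMA, 4239 in LLS and 3554 in LMA, and 4342 in T. Atp5g3 had 63076 for MMA, 50223 for LLS, 50005 for LMA and 56629 for T. MMA was the highest tissue for each by these probes, and LMA lay below the other tissues for Atp5g2. A second probe of Atp5g3 gave 0.26 in LLS minus MMA and 0.03 in T minus MMA, so the order for that gene depended on the probe.

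Apart from these isoforms most members differed by less than 2-fold over the tissues under the scaling used here. Among the 87 members well above background in every tissue, the ratio of the highest to the lowest tissue had a median of 1.40 (0.48 on the log2 scale), 82 stayed under 2-fold and 52 under 1.5-fold. This ratio was not computed over all genes or under the other processings. Counts at 2-fold did depend on the processing. In T minus MMA, 5 members were higher here, 14 after cyclic loess and 11 after quantile normalization. Median scaling gave 4 higher and 3 lower. The member with the smallest range was Atp5a1, the alpha subunit of ATP synthase, at 0.09, with 78494 in MMA, 75055 in LLS and 75904 in LMA, and 79803 in T.

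**Figure D2:**
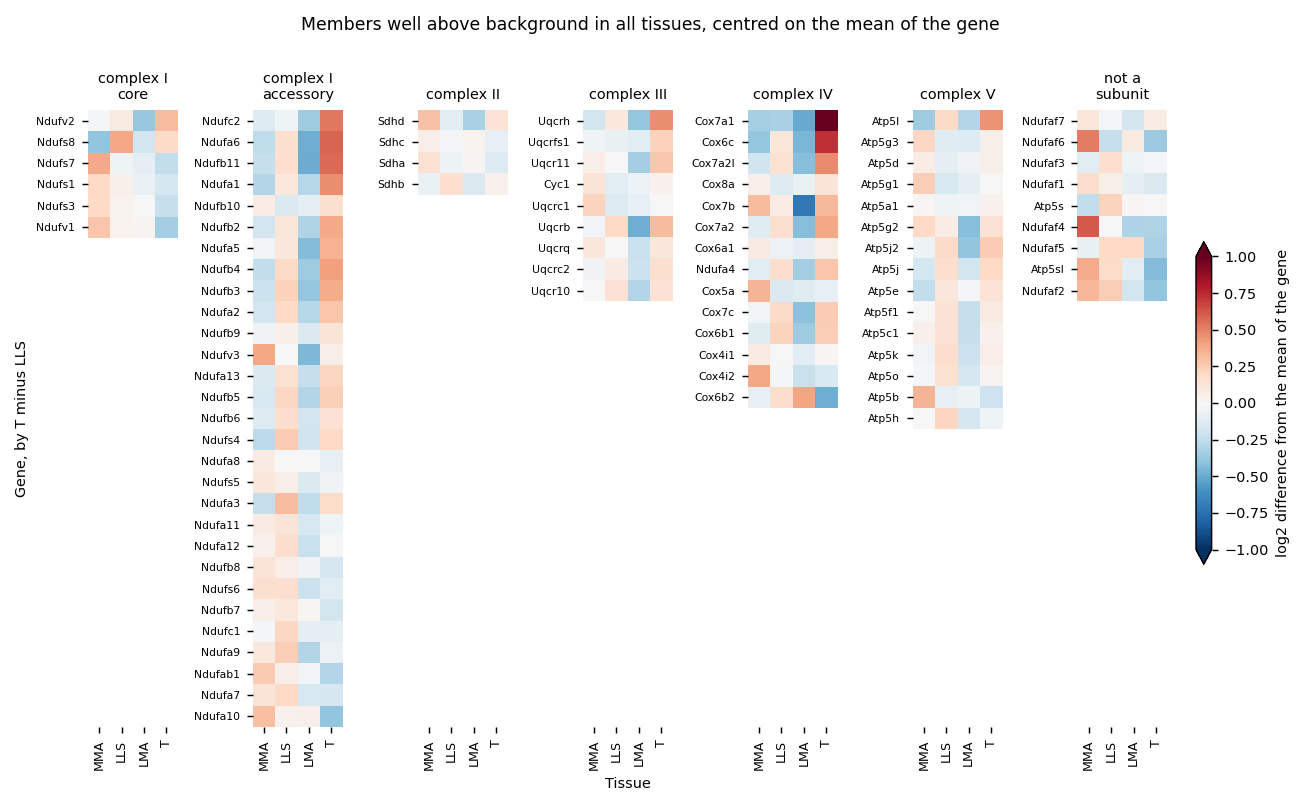
Log2 scaled signal of 86 of the 87 members well above background in every tissue, each gene centred on its own mean over MMA, LLS, LMA and T (colour, limits -1 and 1), sorted within each complex by T minus LLS. Cox7a1 and Cox6c show the strongest colour in T among complex IV genes, and LMA is pale or blue for most accessory subunits of complex I.

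In T minus LLS, the later tongue against the swellings it forms from, the 90 members compared had a median of 0.03, against -0.10 over all 22311 genes and -0.18 over the 3408 genes with a mean scaled signal of at least 5000. The sign of the members' own median depended on the scaling, since it was 0.23 after cyclic loess, 0.13 after quantile normalization, -0.16 with median scaling and -0.0011 with the median of all probes of a gene. Of the members, 50 lay above 0 and 40 below with the 75th percentile, 69 and 21 after loess, and 23 and 67 with median scaling, whereas 42.4% of all genes and 29.5% of the genes of signal 5000 or more lay above 0. The members less these brighter genes differed by 0.21, between 0.19 and 0.23 over 8 processings, whereas the members less all genes differed by 0.12 and crossed 0, between -0.03 and 0.22. The difference from the brighter genes was chosen after seeing the data, and 71 members were among those 3408 genes. A shift of a whole array cancels in it, so median scaling could not change it and its narrow range was partly fixed in advance. By complex, complex III had 9 of 9 members above 0 (median 0.14), complex IV without the muscle isoforms 12 of 14 (0.11), complex V 9 of 15 (0.03), complex II 1 of 4 (-0.07), the accessory subunits of complex I 14 of 29 (-0.03) and its core subunits 1 of 7 (-0.22). With median scaling the medians of complexes III, IV and V were below 0 as well, at -0.05, -0.07 and -0.16.

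The members that led T minus LLS after Ndufa4l2 and Cox7a1 were Cox6c (0.61), a small subunit of complex IV, and the complex I accessory subunits Ndufc2 (0.57) and Ndufa6 (0.43). Cox6c had 25349 for MMA, 36060 for LLS, 24154 for LMA and 54911 for T. T was the highest tissue for this gene and MMA and LMA were the lowest. At the other end stood Cox6b2 (-0.67), the assembly factors Ndufaf2 (-0.64) and Ndufaf5 (-0.53) of complex I, Atp5sl (-0.62), and Ndufa10 (-0.43), an accessory subunit of complex I. The 9 genes that are not subunits had 1 above 0 and a median of -0.22.

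**Figure D3:**
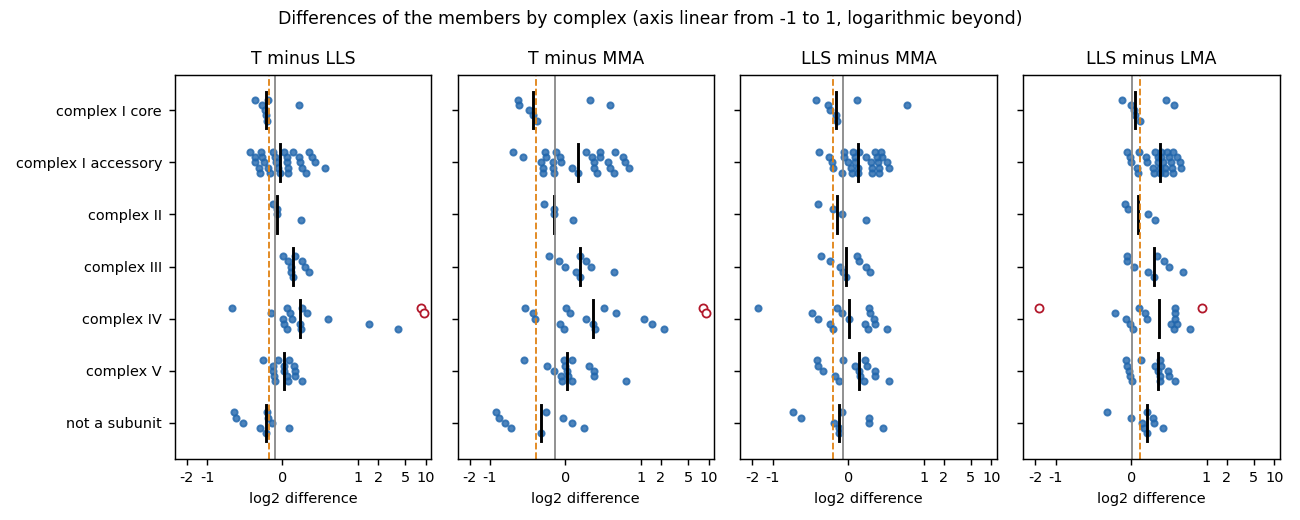
Log2 differences of the members by complex in T minus LLS, T minus MMA, LLS minus MMA and LLS minus LMA, 1 point per gene, with the axis linear from -1 to 1 and logarithmic beyond. Red open points are bounds, black bars are group medians, the grey line is the median of all genes and the dashed orange line that of genes of signal 5000 or more. The core subunits of complex I lie left of its accessory subunits in each panel by their medians.

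In T minus MMA, which spans the longest time, 5 of 90 members were at least 2-fold higher, beside 15.9% of 22326 genes, and 0 were at least 2-fold lower, beside 13.8%; in either direction 29.8% of genes were that far apart. The added gene was Cox6c, 2.17-fold higher in T (log2 1.12), a call that was lost with median scaling (0.84). The higher members numbered 14 after loess and 11 after quantile normalization, and median scaling gave 4 higher and 3 lower, the lower ones being Atp5sl, Ndufaf4 and Ndufaf6. The median of the members was 0.03, against -0.13 over all genes and -0.38 over the genes of signal 5000 or more, but it was 0.45 after loess, 0.37 after quantile normalization and -0.24 with median scaling. Above 0 were 47 members and below 43, against 77 and 13 after loess, 74 and 16 after quantile normalization, and 32 and 58 with median scaling; 43.2% of all genes and 24.8% of the brighter genes were above 0. Less the brighter genes the members stood at 0.42, between 0.39 and 0.42 over 8 processings, and less all genes at 0.17, between -0.00060 and 0.46. As in T minus LLS, median scaling could not change the difference from the brighter genes. Following Ndufa4l2, Cox7a1 and Cox6c, the highest differences measured in both tissues were those of Ndufa6 (0.84) and Atp5l (0.80), which encodes subunit g of ATP synthase. The lowest were Ndufaf4 (-0.91), Ndufaf6 (-0.88), Atp5sl (-0.80), Ndufaf2 (-0.72) and Ndufa10 (-0.69), of which Ndufa10 alone is a subunit.

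Within complex I the core subunits, which carry the flavin and the iron-sulfur clusters, and the accessory subunits, which surround the core, differed in T minus MMA. The accessory subunits had a median of 0.17 and 16 of 29 above 0, and the core subunits a median of -0.43 and 2 of 7 above 0. Among the core genes, Ndufs7 (-0.62) and Ndufv1 (-0.61) were the lowest in T minus MMA, while Ndufs8 (0.59) and Ndufv2 (0.33) were higher. Accessory minus core was 0.60 in T minus MMA, 0.19 in T minus LLS, 0.30 in LLS minus MMA and 0.34 in LLS minus LMA. A shift of a whole array cancels in this difference, so median scaling could not change it, and it was the same without filter and floor. It was above 0 in each comparison after cyclic loess, quantile normalization and normexp background correction. The authors' value table gave nearly the values of quantile normalization. The difference was not computed with the median of all probes of a gene. A second probe of Ndufv2 gave -0.47 in T minus MMA, so the direction of that gene depended on the probe. This grouping was noticed in these arrays and is a description of them.

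In LLS minus MMA, the E11.5 lingual swellings against the E9.5 arch, 0 of 88 members were at least 2-fold higher, beside 8.43% of 21726 genes, and 1, Ndufa4l2, was at least 2-fold lower, beside 5.39%. The call on Ndufa4l2 was lost with normexp background correction, where its difference was -0.84. The median of the members was 0.08, against -0.08 over all genes and -0.21 over the brighter genes, with 0.31 after loess, 0.28 after quantile normalization and -0.01 with median scaling. Above 0 lay 49 members and below 39, with 68 and 20 after loess, 72 and 16 after quantile normalization and 42 and 46 with median scaling, and 44.3% of all genes and 27.2% of the brighter genes were above 0. The highest members were Ndufs8 (0.78), a core subunit of complex I with iron-sulfur clusters, Atp5l (0.55), Ndufa3 (0.54), Ndufs4 (0.51) and Cox6c (0.51). The lowest after Ndufa4l2 were Ndufaf6 (-0.74), Ndufaf4 (-0.62), Cox5a (-0.48) and Ndufs7 (-0.42), with Atp5b, the catalytic beta subunit of ATP synthase, next at -0.42. Ndufs8 had 22070 in LLS, against 12858 in MMA, and it was above 2-fold only after quantile normalization and in the authors' value table.

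LLS minus LMA sets the swellings that form the tongue against the neighbouring lateral arch of the same age. Here 0 of 89 members were at least 2-fold higher, beside 3.20% of 22535 genes, and 1, Cox6a2, was at least 2-fold lower, beside 2.58%. Cox6a2 was not well above background in LLS and was at least 3.44-fold lower there than in LMA, a call that was lost with normexp background correction. Ndufa4l2 was higher in LLS by 0.94 on the log2 scale, against an LMA value that was not well above background. It passed 2-fold after loess (1.04), quantile normalization (1.08) and median scaling (1.04) and in the authors' value table (1.08). With normexp background correction its difference was 0.38. Otherwise the members tended to small positive differences, with 72 above 0 and 17 below (59 and 30 after loess, 58 and 31 after quantile normalization, 85 and 4 with median scaling) and a median of 0.31, against 50.7% of all genes above 0 with a median of 0.01 and 70.2% of the brighter genes with a median of 0.11. The median of the members stayed above 0 in every processing tried, between 0.15 after quantile normalization and 0.41 with median scaling, and less the brighter genes it was 0.19, between 0.14 and 0.20. Median scaling could not change the difference from the brighter genes here either. The highest were Cox7b (0.79), Uqcrb (0.69), a small subunit of complex III, and the accessory complex I subunits Ndufb11 (0.67), Ndufa6 (0.64) and Ndufb3 (0.61). The other probes of Uqcrb gave 0.39 and -0.42, so its direction depended on the probe. Among the lowest were Ndufaf6 (-0.32), Cox6b2 (-0.22), Sdha (-0.08), the flavoprotein of complex II, and Atp5d (-0.07). For Ndufaf6 the other probes gave 0.02 and -0.55, so its direction also depended on the probe. The catalytic F1 part of ATP synthase had a median of -0.02 over 5 genes, and its stalk and membrane part 0.38 over 10 genes.

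**Figure D4:**
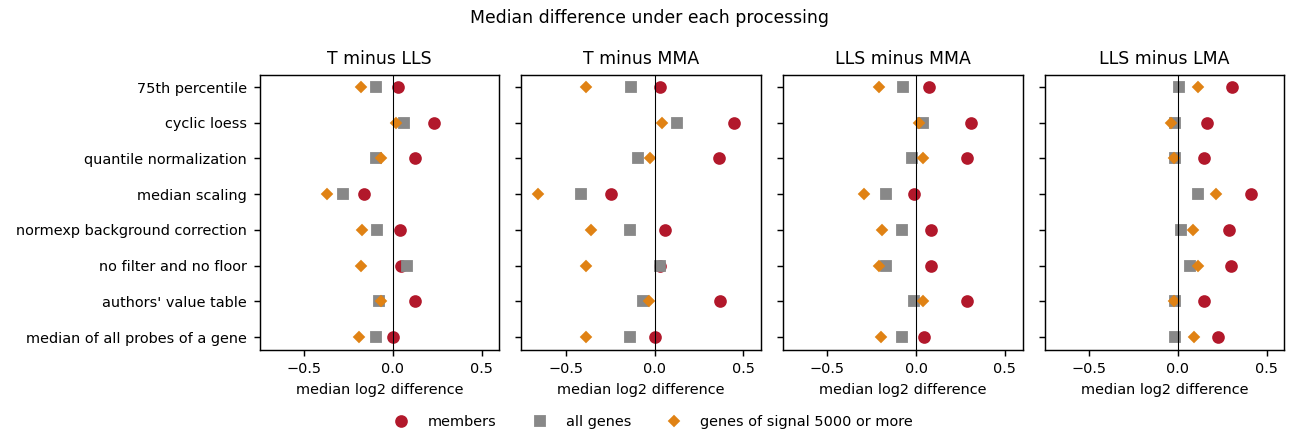
Median log2 difference of the members, of all genes and of genes of signal 5000 or more in the 4 comparisons under each processing. In T minus LLS and T minus MMA the members' median changes sign with median scaling, while it lies to the right of the median of the brighter genes in every row.

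The order of the tissues was shared by many members. In 37 of the 87 members well above background everywhere (42.5%), both tongue tissues, LLS and T, lay above both MMA and LMA, against 13.6% of 18539 genes and 11.47% of the brighter genes. The opposite order was found in 7 members (8.05%), against 19.9% of genes. The share of members with LLS and T on top was 31.0% with median scaling (all genes 10.8%), 49.4% after quantile normalization (15.4%) and 58.6% after loess (20.1%). LMA was the lowest tissue for 52 of the 87 members, beside 22.2% of all genes. After quantile normalization this held for 10 members, beside 19.2% of all genes. MMA was then lowest for 60 members, a count without a computed share over all genes. Which of these tissues is lowest therefore depended on the scaling. Examples were Ndufb11, with 26857 in MMA, 35310 in LLS and 22265 in LMA, and 46552 in T, and Uqcrh, the hinge protein of complex III, with 68607 for MMA, 83718 for LLS, 59374 for LMA and 106998 for T. Both genes were higher in the tongue tissues than in the arch tissues. Epithelial markers also differed in LLS minus LMA, with 4 of 6 at least 2-fold higher, beside 3.20% of all genes. Their summed scaled signal was 60206 in MMA, 25364 in LLS and 7130 in LMA, and 191982 in T. Arch mesenchyme markers were at least 2-fold lower in LLS than in LMA for 4 of 6, beside 2.58% of all genes, with sums of 46370, 10989, 35501 and 2787 in the same tissues. The part of these cell types in the order was not tested.

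Other lists of mitochondrial energy metabolism were set beside the chain, and their counts are to be read against all genes, of which 11.4% were at least 2-fold higher and 5.97% lower in T minus LLS, and 15.9% higher and 13.8% lower in T minus MMA. The list of the tricarboxylic acid cycle and pyruvate dehydrogenase also holds the pyruvate carrier. Among its 20 genes, 0 were at least 2-fold apart in T minus LLS (median -0.14), and in T minus MMA 2 were higher and 0 lower (median -0.39). Those 2 were the mitochondrial pyruvate carrier subunits Mpc1 (2.31) and Mpc2 (1.46), while citrate synthase Cs stood at -0.52. Among 45 assembly factors of the complexes, 0 were at least 2-fold apart in T minus LLS (median -0.20), and of 44 compared in T minus MMA 1 was higher and 7 were lower (median -0.42), the lower share being near the 13.8% of all genes. The 5 electron carriers had 0 at least 2-fold apart in T minus LLS and 1 lower in T minus MMA, and Cycs, somatic cytochrome c, stood at -0.06 in T minus LLS.

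The list of fatty acid oxidation, which also holds genes of fatty acid binding and transport, had 3 of 16 at least 2-fold higher in T minus LLS and 0 lower. Its median was 0.16, and the shares over all genes were 11.4% and 5.97%. Fabp3, the heart and muscle fatty acid binding protein, had 686 for MMA, 242 for LLS, 371 for LMA and 7523 for T, a difference of 4.96 in T minus LLS. The fatty acid transporter Cd36 was well above background in T alone, with 249, and the muscle carnitine palmitoyltransferase Cpt1b had 68.8 in T and was not well above background in LLS. The list of mitochondrial carriers and porins also holds the mitochondrial creatine kinases. Of its 13 genes compared, 2 were higher and 0 lower in T minus LLS, a share near the 11.4% of all genes. Both were creatine kinases, Ckmt1 (1.67) and Ckmt2 (at least 2.35), and none was a carrier or porin. In T minus MMA 4 genes of this list were higher and 2 lower, with Slc25a13 (-2.93), an aspartate and glutamate carrier, the lowest. Of 13 genes of coenzyme Q synthesis, 1 was higher in T minus LLS, Adck3 (Coq8a), at 1.95.

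Among 22 regulators of mitochondrial biogenesis compared, 3 were at least 2-fold higher in T minus LLS and 1 was lower, both near the 11.4% and 5.97% of all genes. The higher ones were Mef2c (2.88), a muscle transcription factor, Ppara (1.40), a lipid-sensing receptor, and Ppargc1b (1.23), a coactivator of respiratory genes, and the lower one was Gabpb1 (-1.08), a subunit of GABP. Nrf1 stood at -0.56 and Tfam, the packaging protein of mitochondrial DNA, at -0.33. In T minus MMA 7 regulators were higher and 3 lower, beside 15.9% and 13.8% of all genes. Ppargc1a, the coactivator of mitochondrial biogenesis, had 48.5 in MMA, 223 in LLS and 62.7 in LMA, and 319 in T, and was the higher one in LLS minus LMA, at 1.83. Its tongue tissues were above its arch tissues.

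Subunits encoded by mitochondrial DNA were represented by 11 of 13 genes. In T minus LLS 4 lay above 0 and 7 below (median -0.01), beside 42.4% of all genes and 29.5% of the genes of signal 5000 or more above 0. In LLS minus LMA 10 of 11 lay above 0 (median 0.29), beside 50.7% of all genes and 70.2% of the genes of signal 5000 or more. The median of the nuclear-encoded members was 0.31 there. ND6, the complex I subunit encoded on the other strand from most mitochondrial genes, differed from the rest. It had 1470 for MMA, 244 for LLS, 245 for LMA and 636 for T. MMA was highest and both E11.5 tissues lowest, with log2 differences of 1.38 in T minus LLS, -1.21 in T minus MMA and -2.59 in LLS minus MMA.

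**Figure D5:**
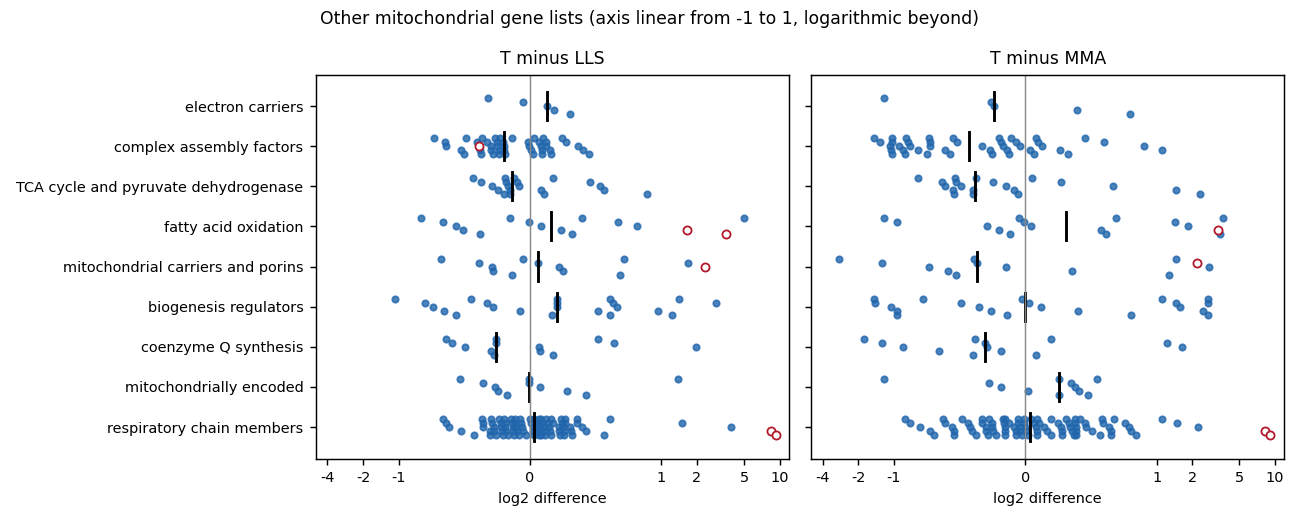
Log2 differences of other mitochondrial gene lists and of the respiratory chain members in T minus LLS and T minus MMA, 1 point per gene, with the axis linear from -1 to 1 and logarithmic beyond. Red open points are bounds and black bars are medians. Fatty acid oxidation, carriers and regulators spread beyond 2-fold on the right, while most respiratory chain members lie between -1 and 1.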

How the data were processed

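RNA of 4 tissue pools was measured on 4 single-colour Agilent arrays, 1 per tissue. The authors obtained the intensity values of the deposited scanner files with Feature Extraction 10.7.1.1 per the file headers (9.5.1.1 per the submitters' processing notes), with background subtraction and no scaling between arrays. The deposited value table holds intensity with 1 maximum in all 4 columns and column medians of 50.5 in MMA, 51.1 in LLS and 51.3 in LMA, and 51.9 in T, so a between-array normalization was applied whose method is not given in the sources used here. The extraction text of the labels names cerebellum, and of 7 cerebellar markers Gabra6 and Atoh1 were not well above background in any tissue, while 5 were in MMA and LMA and 4 in LLS and T, with summed scaled signals of 1312 for MMA, 1003 for LLS, 1785 for LMA and 433 for T.

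From these files, spots flagged as outliers were dropped, spots of a probe averaged, and log2 processed signal less the 75th percentile of its array was taken. That percentile was 422 for MMA, 456 for LLS, 507 for LMA and 491 for T. The probe with the highest mean signal stood for each gene name of the files. A value not well above background was raised to the lowest value that was well above background on its array (24.6 in MMA, 21.9 in LLS and 18.6 in LMA, and 25.4 in T) if below it. A fold against it is written "at least", and a bound that would point the other way was left out. Genes were compared where either tissue was well above background and counted at 2-fold. No test was made. The tools were Python 3.11.15, pandas 2.3.3, numpy 2.4.6, R 4.3.3 and limma 3.58.1. The counting was checked on simulated data. Members and lists were chosen with earlier results of these data known. 1 member counts in the totals but is not reported here by itself. The isoform pairs are given in every tissue, and for each comparison the 5 highest and 5 lowest members measured in both tissues and those at least 2-fold apart are named.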

Additional observations from a re-analysis of the deposited data

How the results depend on the processing

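The sign of the members' median depended on the processing in T minus LLS, T minus MMA and LLS minus MMA, and not in LLS minus LMA. Medians in T minus LLS, T minus MMA, LLS minus MMA and LLS minus LMA were 0.03, 0.03, 0.08 and 0.31. They were 0.23, 0.45, 0.31 and 0.16 after cyclic loess, 0.13, 0.37, 0.28 and 0.15 after quantile normalization, 0.13, 0.37, 0.28 and 0.15 in the authors' value table, and -0.16, -0.24, -0.012 and 0.41 with median scaling. With the median of all probes of a gene, T minus LLS gave -0.0011 and LLS minus LMA 0.23. Less the median of genes of signal 5000 or more, an alternative chosen after seeing the data, they were 0.21, 0.42, 0.28 and 0.19. Median scaling moved the median of all genes by -0.18 in T minus LLS and -0.28 in T minus MMA, and loess by 0.16 and 0.26.

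Counts of members at least 2-fold apart were 4, 5, 1 and 1. T minus LLS kept the same 4 genes in each processing. T minus MMA gave 14 after loess, 11 after quantile normalization and 11 in the value table, all higher in T, 7 with median scaling (4 higher and 3 lower) and 7 without filter and floor (6 higher and 1 lower). LLS minus MMA gave 2 after quantile normalization and in the value table, 0 with normexp and 4 without filter and floor. LLS minus LMA gave 2 after loess, quantile normalization and median scaling and in the value table, 0 with normexp and 3 without filter and floor. At least 1.5-fold apart were 8, 22, 4 and 9 members. In T minus LLS Cox6a2 ranged from 7.43 to 9.76, Cox7a1 from 1.18 to 1.62, Cox8b from 6.47 to 9.996 and Ndufa4l2 from 2.53 to 3.99. The cause of these changes was not tested. Other probes of the members had the same direction as the brightest in 72.7% of 44 cases in T minus LLS, 79.5% of 44 in T minus MMA, 84.4% of 45 in LLS minus MMA and 71.1% of 45 in LLS minus LMA. Signal over background limits Cox6a2, Cox8b, Cox7b2, Cox8c and Ndufa4l2, whose dim values have no order. No paired analysis was possible because each tissue has 1 array, and no replicate could be left out for the same reason.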
